A study of Mus musculus with 6 samples.

Results

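The gasdermin family of the mouse was followed in hair follicle stem cells as 9 genes, Gsdma, Gsdma2, Gsdma3, Gsdmc, Gsdmc2, Gsdmc3, Gsdmc4, Gsdmd and Gsdme, of 36528 gene identifiers counted in each library. They were taken by symbol, with the counts of diphtheria toxin (DT) against saline already in view, so their values in that contrast are given as a description with no test. Polyadenylated RNA came from skin cells of Lgr5-DTReGFP mice, sorted as CD49f+, CD34+ and GFP-. These mice express the toxin receptor and a green fluorescent reporter where Lgr5, a stem cell gene of the lower bulge and hair germ, is active, and DT kills cells with the receptor. Of the 6 libraries, 3 came from mice given NaCl (saline) and 3 from mice given DT, and both groups carried the receptor allele. No receptor-free group given DT was analysed here, and age, dose, time after DT and hair cycle stage are not in the labels. Nothing in the labels ties each library to its own animal, so every SD and p-value covers the variation among these 6 libraries alone, part or all of which may be technical.

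Gasdermins are cytosolic proteins built of an amino-terminal domain that can form membrane pores and a carboxy-terminal domain that holds it in check. When a protease cuts the linker between the domains, the freed part inserts into the plasma membrane, where the pores let out interleukins and can end in a lytic death called pyroptosis. The mouse has several Gsdma and several Gsdmc genes where humans have a lone copy of each. Gsdma genes are known for their expression in skin, and dominant mutations of Gsdma3 cause hair loss and damage to the bulge in mutant mouse lines.

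The copies sit side by side. Gsdma3 (Entrez 450219, chromosome 11 from 98626349 to 98638801), Gsdma2 (Entrez 76758, chromosome 11 from 98646743 to 98657964) and Gsdma (Entrez 57911, chromosome 11 from 98664337 to 98677708) lie in a row on the plus strand of GRCm38. Gsdmc (Entrez 83492, chromosome 15 from 63775971 to 63808739), Gsdmc2 (Entrez 331063, from 63824328 to 63845193), Gsdmc3 (Entrez 270328, from 63857605 to 63878579) and Gsdmc4 (Entrez 74548, from 63891140 to 63912319) form a row on the minus strand of chromosome 15. Gsdmd (Entrez 69146, chromosome 15 from 75862144 to 75867408) and Gsdme (Entrez 54722, chromosome 6 from 50207401 to 50263857, also named Dfna5) each stand alone. No exon of the 9 genes shares a base with an exon of another gene in the GENCODE M21 annotation.

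Only reads that aligned to a single place were counted, so how far the copies differ sets what the counts can show. The first 60 coding bases of the Gsdma genes, from the GENCODE M21 transcripts of GRCm38, are shown because they hold the kind of difference by which a read can be assigned, with capitals at bases that differ from Gsdma3.
Gsdma3: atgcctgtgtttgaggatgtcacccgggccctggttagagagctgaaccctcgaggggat
Gsdma2: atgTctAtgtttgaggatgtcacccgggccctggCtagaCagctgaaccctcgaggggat
Gsdma: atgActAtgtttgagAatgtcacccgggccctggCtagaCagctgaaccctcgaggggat
Gsdma2 differed from Gsdma3 at 4 of these bases and Gsdma at 5. Over the whole coding sequence the identity of Gsdma3 was 85.8% with Gsdma and 85.0% with Gsdma2. The identity of Gsdma with Gsdma2 was 89.7%.

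The Gsdmc genes are closer copies, and their first 60 coding bases are shown because no read within them could tell Gsdmc2, Gsdmc3 and Gsdmc4 apart, with capitals at bases that differ from Gsdmc2.
Gsdmc2: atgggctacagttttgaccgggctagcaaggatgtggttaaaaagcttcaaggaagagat
Gsdmc3: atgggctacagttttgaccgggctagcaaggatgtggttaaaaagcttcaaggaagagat
Gsdmc4: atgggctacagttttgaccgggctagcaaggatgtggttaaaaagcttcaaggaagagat
Gsdmc: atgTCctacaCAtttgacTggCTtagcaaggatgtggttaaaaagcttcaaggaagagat
Gsdmc2 and Gsdmc3 were identical at 97.1% of coding positions, and Gsdmc4 at 93.0% with either. Gsdmc differed at 7 of the 60 bases and was 82.8% to 83.8% identical with the other 3 genes of its row.

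The share of windows of 50 bases in a member's transcript that occurred in no transcript of another gene was 94.7% for Gsdma3, 91.7% for Gsdma and 89.9% for Gsdma2. It was 83.6% for Gsdmc, and only 51.5%, 53.1% and 61.0% for Gsdmc2, Gsdmc3 and Gsdmc4. Gsdmd and Gsdme shared no such window with any gene. At 100 bases all windows of Gsdma3 were its own, and 71.4%, 69.5% and 79.8% of those of Gsdmc2, Gsdmc3 and Gsdmc4. The windows shared by the Gsdma genes were all with each other, as were those of the Gsdmc genes. The length of the reads is not given in the sources used here, and introns and intergenic sequence were not searched.

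**Figure D1:**
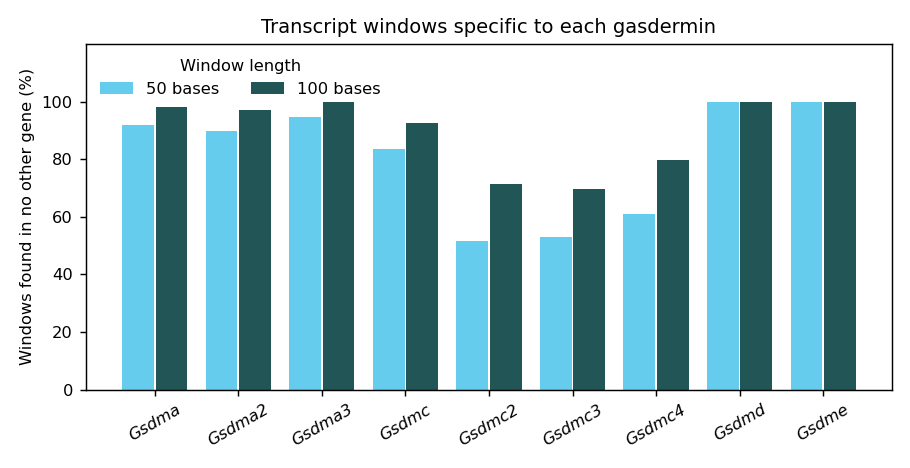
Share (%) of windows of 50 bases (light bars) and 100 bases (dark bars) in the transcript of each of the 9 gasdermins that occur in no GENCODE M21 transcript of another gene. Gsdmc2, Gsdmc3 and Gsdmc4 have the fewest windows of their own, 51.5% to 61.0% at 50 bases, and Gsdmd and Gsdme have 100% at both lengths.

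In the saline libraries a pair of gasdermins led the family per length. Gsdma3 was at 4.78, 4.99 and 4.75 RPKM in saline libraries 1 to 3 (4.84 ± 0.131, SD, n = 3), where RPKM is the read count scaled by gene length and by library size. Gsdmd, the gasdermin of inflammasome signalling, was at 4.34, 4.12 and 4.72 RPKM (4.39 ± 0.304). The lowest Gsdma3 library and the highest Gsdmd library were almost at the same level, so the order of these 2 genes is barely resolved. Gsdma followed at 1.66 ± 0.869 RPKM and Gsdme at 0.718 ± 0.274 RPKM, and the libraries of these overlapped in level. Gsdmc was at 0.199 ± 0.183 RPKM, Gsdma2 at 0.00831 ± 0.0144 RPKM, and Gsdmc2, Gsdmc3 and Gsdmc4 had no counted read in saline.

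Gsdma3 was far higher in the DT libraries. Its level was 9.28, 9.71 and 9.20 CPM in saline libraries 1 to 3, where CPM is the count scaled to library size with TMM factors, and 87.0, 56.3 and 72.3 CPM in DT libraries 1 to 3. Every DT library lay far above every saline library, and the saline libraries were almost equal. Mean levels were 9.40 ± 0.275 CPM for saline and 71.9 ± 15.3 CPM for DT (SD, n = 3), from 646 and 4506 reads. The log2 fold change, DT minus saline, was 2.94 (SE 0.19), a 7.65-fold higher level. By this value Gsdma3 stood at rank 485 of the 15132 genes tested. The fold was alike in the 2 number series of the submitted sample identifiers, with ratios of mean CPM of 7.54 in the larger series (2 libraries a group) and 7.86 in the smaller (1 library a group).

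**Figure D2:**
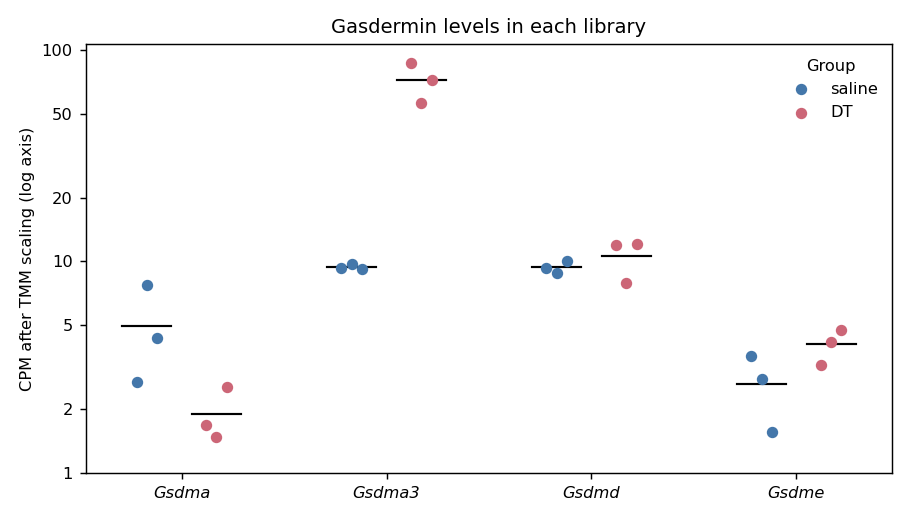
CPM after TMM scaling (log axis) of the 4 gasdermins with enough reads to be tested, for each saline (blue) and DT (red) library, with a line at each group's mean. The DT libraries of Gsdma3, at 56.3 to 87.0 CPM, stand clear of its saline libraries near 9 CPM, those of Gsdma lie below saline, and the groups overlap for Gsdmd and Gsdme.

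The 250 bases before the start of Gsdma3, chr11:98626099-98626348 on the plus strand of GRCm38.p6 from RefSeq, are shown because this is the member whose level moved most, with capitals at the motif match found in it.
Gsdma3 promoter: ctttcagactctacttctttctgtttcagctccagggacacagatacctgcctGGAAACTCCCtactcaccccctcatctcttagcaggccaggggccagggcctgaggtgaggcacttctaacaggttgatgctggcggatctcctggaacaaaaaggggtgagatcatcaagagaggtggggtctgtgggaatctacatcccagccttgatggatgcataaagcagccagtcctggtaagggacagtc
The capitals mark a match to the NF-kappaB consensus that begins 197 bases before the start. Such a match was present in 7.25% of 32851 promoter windows of this length. The letters TGANTCA of AP-1, found in 6.75% of windows, and TTGCNNAA of C/EBP, found in 9.56%, did not occur in it on either strand. Of the members, RefSeq windows were also at hand for Gsdmc3 and Gsdme, and none of the 3 motifs occurred there. A match describes the letters and does not show binding.

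Gsdma, the neighbour of Gsdma3, went the other way. It was at 2.69, 7.77 and 4.34 CPM in saline libraries 1 to 3 and at 1.69, 1.48 and 2.55 CPM in DT libraries 1 to 3. The saline libraries spread widely, and the highest DT library came close to the lowest saline library without reaching it. Mean levels were 4.94 ± 2.59 CPM for saline and 1.91 ± 0.571 CPM for DT (SD, n = 3), from 333 and 122 reads. The log2 fold change was -1.36 (SE 0.44), and -0.87 without saline library 2, the library with the most Gsdma. The ratio of mean CPM, DT over saline, was 0.302 in the larger number series and 0.589 in the smaller. The ratio of Gsdma3 to Gsdma in RPKM was 5.27, 1.91 and 3.24 in saline libraries 1 to 3 and 78.8, 58.3 and 43.3 in DT libraries 1 to 3. Within this row of genes the balance thus shifted toward Gsdma3 in each DT library. Gsdma2 had 1 read in saline library 2 and none elsewhere.

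Gsdma is known from differentiating skin epithelium, so markers of those cells are given beside it. Of 11 suprabasal epidermis markers 5 fell, Spink5 rose (log2 fold change 1.28) and 5 did not pass. Those that fell were Krt1 (-1.38), Krt10 (-1.30), Dsg1a (-1.12), Calm4 (-1.01) and Sbsn (-0.52). The summed level of the 11 was 1603 to 1957 CPM in saline and 1458 to 1674 CPM in DT. Most of it was Sbsn (903 ± 139 and 629 ± 116 CPM) and Krtdap (476 ± 60.2 and 520 ± 146 CPM), which did not pass. Of 8 upper follicle markers 4 fell and 0 rose (22331 to 25374 CPM in saline and 21770 to 30356 CPM in DT). Nearly all of that sum was Krt17 (21546 to 24607 CPM in saline and 21247 to 29896 CPM in DT). The 4 that fell were Krt79 (64.4 ± 24.4 to 24.9 ± 5.03 CPM), Lgr6 (436 ± 116 to 196 ± 4.62 CPM), Cst6 (64.7 ± 1.83 to 37.7 ± 7.74 CPM) and Lrig1 (56.4 ± 10.6 to 36.6 ± 2.85 CPM). For each of them every DT library lay below every saline library, as for Gsdma and for 20.5% of all genes tested. The groups overlapped for Krt17, Plet1 (186 ± 25.4 and 176 ± 18.9 CPM), Defb6 (10.6 ± 0.694 and 10.5 ± 2.40 CPM) and Gata6 (15.9 ± 4.56 and 13.0 ± 0.950 CPM). None of these markers was at 0 in all libraries. In RNA from a sort, fewer cells of a type and less RNA per cell cannot be told apart, and the part of such cells in the fall of Gsdma was not tested.

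Markers of the hair itself are given beside Gsdma3. Of 6 inner root sheath and hair shaft markers tested, Krt27 and Krt73 rose and Krt71 fell. The sum of the 9 found in the files was 17.5 to 24.4 CPM in saline and 19.4 to 25.3 CPM in DT, and none was at 0 in all libraries. Tchh (7.66 ± 1.09 and 7.77 ± 2.01 CPM) and Krt71 (8.48 ± 2.36 and 4.33 ± 0.269 CPM) had the highest means of the 9 in either group. Krt27 rose from 0.970 ± 0.1002 to 3.05 ± 1.10 CPM (adjusted p = 0.0157) and Krt73 from 0.295 ± 0.304 to 2.70 ± 1.38 CPM (adjusted p = 0.0223). Krt25, with 64 reads in saline and 88 in DT, did not pass the test, and Krt72, with 0 and 37, and Krt31, with 5 and 27, were not tested. For these 5 keratin genes, as for Gsdma3, every DT library lay above every saline library, which held for 25.4% of all genes tested. For Krt71 every DT library lay below every saline library. The groups overlapped for Tchh, for Krt28 (129 reads in saline and 97 in DT) and for Krt35 (2 and 15). The part of hair and root sheath cells in the Gsdma3 values was not tested.

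As a family, the 9 genes summed to 11.8 ± 0.876 RPKM in saline and 43.8 ± 8.08 RPKM in DT (SD, n = 3). Gsdma3 made up 43.5%, 39.2% and 40.5% of this sum in saline libraries 1 to 3 and 86.2%, 84.5% and 82.5% in DT libraries 1 to 3. The share of Gsdmd went from 37.3% ± 4.35 to 11.4% ± 1.01, although its own level hardly differed. The gasdermin pool thus went from 2 genes of similar level to a single prevailing gene.

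**Figure D3:**
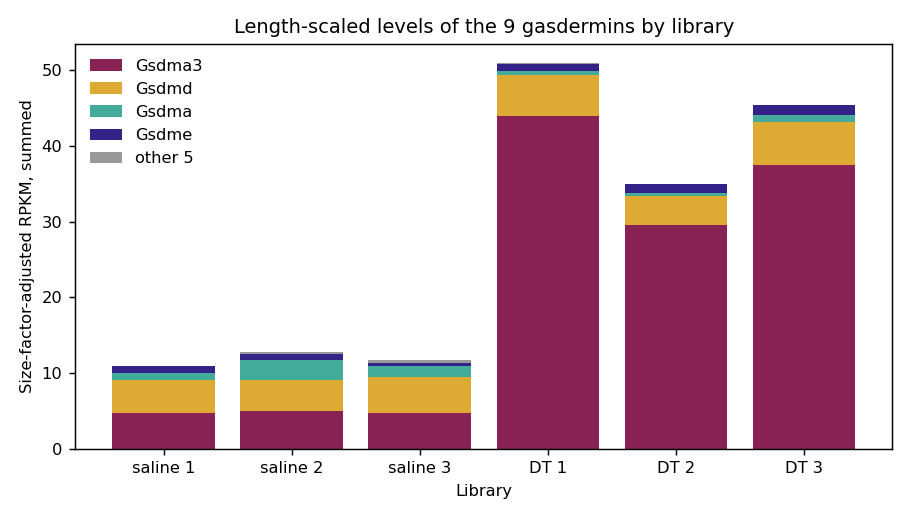
Size-factor-adjusted RPKM of the 9 gasdermins stacked by library, with the 5 genes of few or no reads drawn together. The sum is 11.0 to 12.7 RPKM in the saline libraries and 35.0 to 50.9 RPKM in the DT libraries, and the difference is made up by Gsdma3.

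The Gsdmc genes, of which Gsdmc is known from epidermis and the others mainly from the gut, were barely counted. Gsdmc had 0, 13 and 21 reads in saline libraries 1 to 3 and 6, 0 and 1 in DT libraries 1 to 3. The groups overlapped, since a saline library was at 0 and a DT library was not. Gsdmc2 had 5 reads in DT library 3 and 0 in the other 5 libraries. Gsdmc3 and Gsdmc4 had 0 reads in all 6. A count of 0 allows up to 3 reads, or 0.120 to 0.201 CPM in these libraries (counting error only). Since much of Gsdmc2, Gsdmc3 and Gsdmc4 is shared between them, these limits hold for reads that align to a single place, not for all transcripts of the genes. Pejvakin (Pjvk), a more distant relative of the family best known from the inner ear, had 6 reads in DT library 2, 1 in DT library 3 and 0 elsewhere.

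Gsdmd was at a similar level in both groups. It was at 9.28, 8.84 and 10.1 CPM in saline libraries 1 to 3 and at 11.96, 7.92 and 12.1 CPM in DT libraries 1 to 3. The saline libraries lay within the range of the DT libraries. The log2 fold change was 0.19 (SE 0.23), and it fell between 0.05 and 0.33 when any 1 library was left out.

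Gsdme, first known as a gene of inherited deafness, was at 3.56, 2.78 and 1.56 CPM in saline libraries 1 to 3 and at 3.24, 4.16 and 4.75 CPM in DT libraries 1 to 3. DT library 1 lay below saline library 1, so the groups overlapped, though both other DT libraries were above all saline libraries. The log2 fold change was 0.62 (SE 0.37), and 0.35 without saline library 3. The ratio of mean CPM, DT over saline, was 1.17 in the larger number series and 3.04 in the smaller, so the size of the difference differed between the series.

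Of the 9 members, 4 passed the filter on low counts (Gsdma, Gsdma3, Gsdmd and Gsdme). In the fit over all genes, 1 of the 4 stood past the threshold as higher in DT (Gsdma3) and 1 as lower (Gsdma), where 29.0% of all genes tested were called in either direction, 17.2% as higher and 11.9% as lower. Their 3 DT libraries did not overlap the saline libraries in 2 of 4 cases (1 with DT above and 1 with DT below), against 45.9% of all genes, 25.4% with DT above and 20.5% with DT below. These counts describe genes chosen on this contrast, and nothing is read from them.

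The other genes of gasdermin biology, and those of necroptosis, were listed by known role, but with earlier results of these data known. Of the 52 listed, 33 had enough reads to test. Of these, 7 rose and 0 fell (edgeR quasi-likelihood test, Benjamini-Hochberg adjusted over all genes), with a median log2 fold change of 0.28 against -0.01 over all genes tested. At an unadjusted p under 0.05, 12 were higher and 0 lower. The count of genes that rose was 9 with DESeq2 and 7 with limma-voom, and 0 fell with either. Without DT library 3 the count was 4. The share that rose, 7 of 33, stands beside 17.2% of all genes. Of these 7 genes, 3 belong to necroptosis. Since the list was made with earlier results in view, these counts are given as a description.

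Among 3 tested proteases that cut gasdermins, Casp8 rose and 0 fell. Casp8, the initiator caspase below death receptors, was at 19.2, 30.8 and 26.4 CPM in saline libraries 1 to 3 and 40.05, 44.99 and 44.8 CPM in DT libraries 1 to 3 (log2 fold change 0.77, SE 0.19, adjusted p = 0.0144), with an adjusted p of 0.0594 without DT library 2, 0.0640 without DT library 3 and 0.117 in the larger number series alone. All 3 DT libraries lay above the saline libraries. Casp1, the inflammasome caspase that cuts Gsdmd, was at 11.0 ± 1.89 and 13.4 ± 1.18 CPM (0.28, SE 0.21, adjusted p = 0.354). Casp4, which encodes the mouse caspase that binds bacterial lipopolysaccharide, was at 1.02 ± 0.768 and 2.54 ± 0.946 CPM (1.31, SE 0.68, adjusted p = 0.172). Neither of these caspases passed the test. The cytotoxic and neutrophil proteases Gzma, Gzmb, Elane and Ctsg had too few reads to test, and Elane and Ctsg had none.

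Inflammasome sensors were scarce in this sort. Of 13 sensor and adaptor genes only Pycard and Nlrp10 could be tested, and 0 passed (1, Pycard, at an unadjusted p under 0.05 with edgeR, and 1 with DESeq2 after adjustment). Pycard, the adaptor that joins sensors to Casp1, had a mean of 81.7 ± 4.73 CPM for saline and 105 ± 7.24 CPM for DT (0.36, SE 0.13, adjusted p = 0.0533). Nlrp10 was at 16.3 ± 2.31 and 12.7 ± 6.51 CPM, with DT library 2 lowest at 5.17 CPM. Nlrp6, Naip1, Naip5 and Naip6 had 0 reads in all libraries. The Naip genes are near-identical copies, so unique alignment can undercount them. No sensor gene other than Nlrp10 had more than 31 reads in a group, while Pycard had 5623 and 6493.

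Transcripts that encode proteins released through gasdermin pores showed no called change. Of 4 tested genes, Il1a, Il18, Il33 and Hmgb1, 0 passed with edgeR, DESeq2 or limma-voom, and 0 reached an unadjusted p under 0.05. Il1a had 0.342 ± 0.197 CPM for saline and 0.723 ± 0.130 CPM for DT (log2 fold change 1.07, adjusted p = 0.239), and Il18 at 1.41 ± 0.705 and 0.930 ± 0.0347 CPM. Il1b, with 9 reads in saline and 35 in DT, was below the filter. Il1a and Il1b, which encode interleukins of the same family, each had higher levels in all DT libraries than in any saline library, at few reads. The same held for 25.4% of all genes tested. The groups overlapped for Il18, Il33 and Hmgb1 (log2 fold changes -0.59, -0.52 and 0.13).

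Of 12 genes for pore assembly, membrane rupture and repair, 0 passed with edgeR, DESeq2 or limma-voom. At an unadjusted p under 0.05 the Ragulator-Rag genes Lamtor1 and Rraga and the ESCRT gene Chmp3 were higher in DT. The unadjusted calls did not survive adjustment, except that Chmp3 reached an adjusted p of 0.0445 with consecutive sample identifiers taken as pairs, an alternative chosen after the data were seen. Ninj1, which ruptures the membrane after pores have formed, had 79.0 ± 9.99 CPM for saline and 101 ± 21.9 CPM for DT (0.35, SE 0.17, adjusted p = 0.157). The log2 fold changes of the 12 genes lay between -0.40 (Zdhhc9) and 0.40 (Lamtor1).

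Among 6 tested regulators, Il4ra, Irf1 and Trp53 rose and 0 fell. Il4ra, the receptor chain for the type 2 cytokines that induce Gsdmc genes in the gut, was at 18.4, 16.7 and 13.3 CPM in saline libraries 1 to 3 and 87.0, 67.6 and 74.1 CPM in DT libraries 1 to 3 (log2 fold change 2.24, SE 0.18, adjusted p = 4.67e-05). The cytokines Il4 and Il13 had 0 reads in all libraries. Irf1, an interferon-responsive transcription factor, rose from 52.1 ± 7.09 to 231 ± 44.2 CPM (2.15, SE 0.18, adjusted p = 5.75e-05). Irf2, a factor known to drive Gsdmd, had 71.9 ± 7.26 CPM for saline and 68.7 ± 15.8 CPM for DT (-0.07, SE 0.18, adjusted p = 0.802). Trp53, whose product can induce Gsdme, rose from 217 ± 14.2 to 310 ± 3.78 CPM (0.51, SE 0.12, adjusted p = 0.00984), with an adjusted p of 0.0609 without DT library 3 and 0.161 in the larger number series alone.

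Necroptosis is a lytic death that uses the pore protein MLKL in place of a gasdermin. Its genes included the greatest rises among the 33 tested genes of gasdermin biology and necroptosis, cell type markers left aside. Ripk3, the kinase that activates MLKL, was at 15.3, 9.44 and 11.6 CPM in saline libraries 1 to 3 and 69.2, 118 and 89.6 CPM in DT libraries 1 to 3 (log2 fold change 2.92, SE 0.24, adjusted p = 5.75e-05). Mlkl itself was at 1.41, 3.42 and 0.564 CPM in saline libraries 1 to 3 and 11.3, 12.8 and 12.02 CPM in DT libraries 1 to 3 (2.75, SE 0.50, adjusted p = 0.00345), from 121 and 733 reads. Leaving out saline library 2, where it was highest among the saline libraries, gave a log2 fold change of 3.597. For both genes every DT library was more than 3 times as high as the highest saline library. The adaptor Fadd rose as well (0.73, SE 0.23, adjusted p = 0.0353), but its call was lost on leaving out saline 2, saline 3, DT 2 or DT 3 (adjusted p of 0.0641 to 0.181), in the larger number series alone (0.141) and with scaling by library size only (0.0660). Ripk1 and Cflar, which decide between survival and death below death receptors, did not pass (-0.07 and -0.14), nor did Zbp1 (0.79, SE 1.09).

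Leukocytes express many of these death genes, so their markers are given beside them. Of 12 immune cell markers tested 6 fell (Cd74, H2-Ab1, Cd3e, Cd3g, Adgre1 and Cd52) and Itgam rose, and the sum over the 16 found in the files was 188 to 266 CPM in saline and 121 to 150 CPM in DT. None of the 16 was at 0 in all libraries. Most of the sum was Cd74, an antigen presentation gene, at 131 to 172 CPM in saline and 87.1 to 104 CPM in DT. The myeloid integrin gene Itgam went from 0.344 ± 0.301 to 4.03 ± 2.17 CPM (log2 fold change 3.54, SE 0.83, adjusted p = 0.0109), from 23 and 225 reads. Itgax, another myeloid integrin gene, had 7 and 38 reads and was not tested. For both integrin genes every DT library lay above every saline library, as for 25.4% of all genes tested. Other myeloid markers had lower means in DT, though the groups overlapped for Csf1r, Cd68 and Lyz2. Adgre1 fell (-4.70, SE 0.92, from 128 and 4 reads), while Tyrobp (-1.17), Csf1r (-0.46) and Cd68 (-0.18) did not pass. Lyz2, with 119 and 21 reads, was not tested. The part of immune cells in the values of the death genes was not tested.

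**Figure D4:**
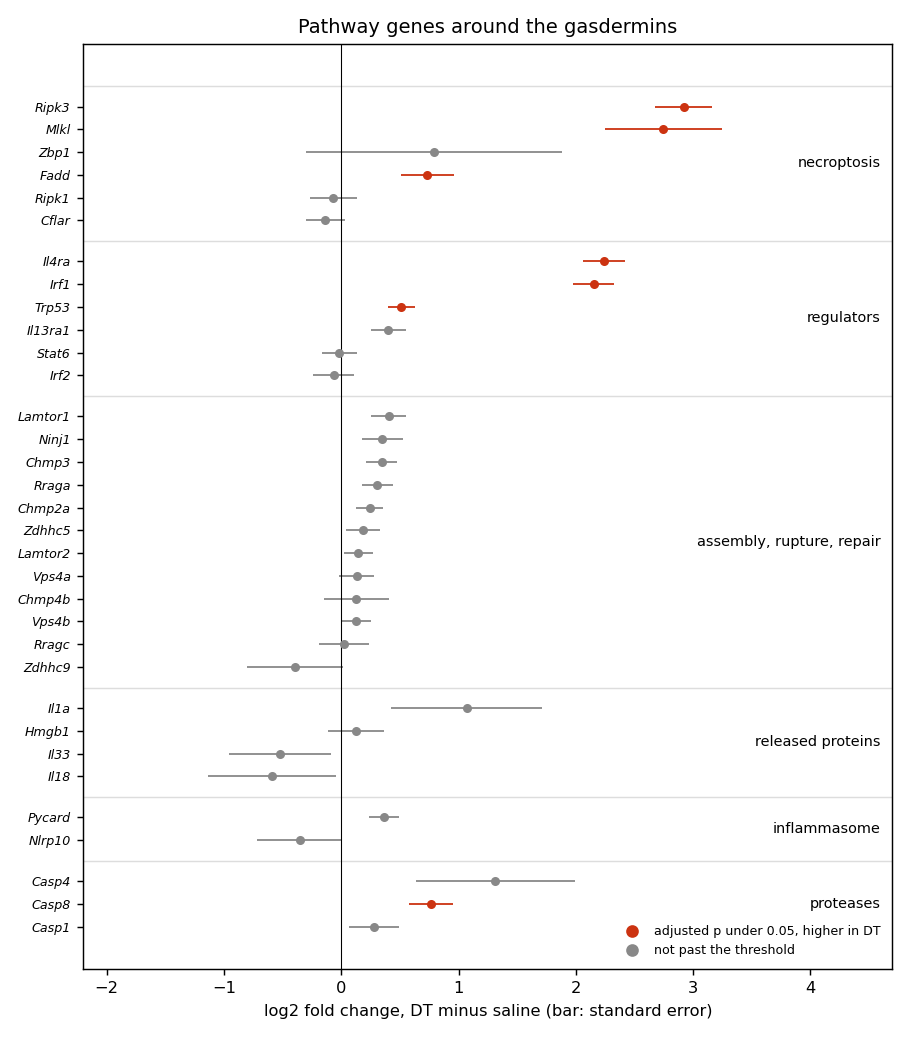
Log2 fold change, DT minus saline, with its standard error, of the 33 tested genes of gasdermin biology and of necroptosis, by list. Red points are the 7 genes past an adjusted p of 0.05, all higher in DT, led by Ripk3 at 2.92 and Mlkl at 2.75, and grey points did not pass.

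The genes that flank the 4 gasdermin loci were compared to see whether whole neighbourhoods moved. Of 40 flanking genes, 5 on each side of a locus, 6 rose and 2 fell, against 29.0% of all genes called, with a median log2 fold change of 0.02. Before and after stand here for lower and higher coordinates, whatever the strand of the gasdermin. The farthest flanking gene lay 3017 kb from its locus. Beside the Gsdma row 8 of 10 did not pass. Ormdl3, 39.1 kb before the row, was at -0.17 (SE 0.23) and Psmd3, 4.85 kb after it, at 0.18 (SE 0.22). Farther off, Thra, a thyroid hormone receptor, fell (-1.32, SE 0.22, adjusted p = 0.00215) and Nr1d1, a circadian repressor, rose (1.69, SE 0.23, adjusted p = 0.000824). Thra and Nr1d1 overlap on opposite strands, and since counting by strand is not stated, reads from the overlap cannot be told apart. The nearest tested genes on both sides of the Gsdma row thus differed by less than their standard error while Gsdma3 stood at 2.94 and Gsdma at -1.36.

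**Figure D5:**
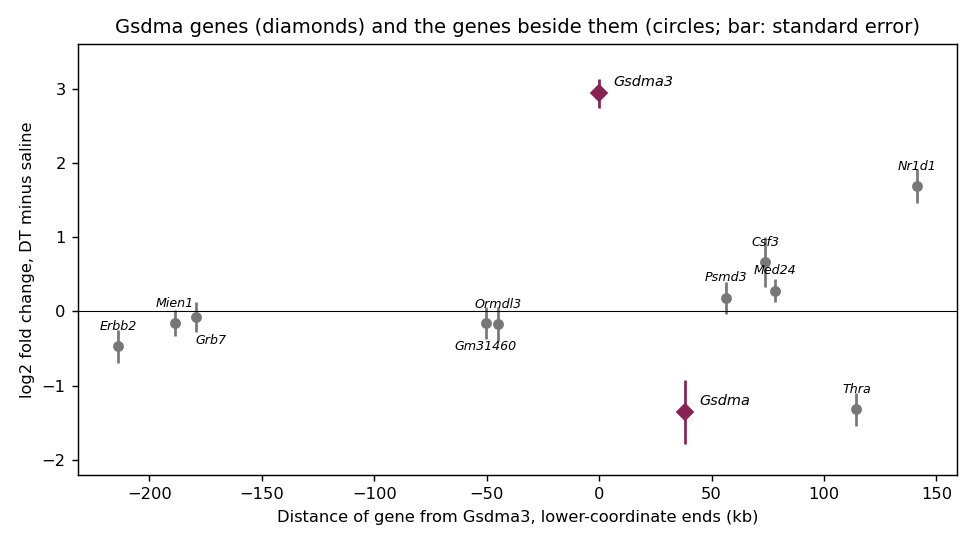
Log2 fold change, DT minus saline, with its standard error, of Gsdma3 and Gsdma (diamonds) and of the 10 nearest tested genes (circles), by distance in kb from Gsdma3. The diamonds stand at 2.94 and -1.36, and of the circles only Nr1d1 (1.69) and Thra (-1.32) passed the test.

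Around Gsdmd 0 of 10 flanking genes passed. At the Gsdme locus Mpp6, 8.25 kb before it by coordinate, rose (1.47, SE 0.32, adjusted p = 0.00762, and 0.0849 in the larger number series alone). So did Osbpl3, 29.5 kb after Gsdme (0.93, SE 0.18, adjusted p = 0.00492). The splicing factor gene Tra2a, 943 kb before Gsdme, rose too (0.80, adjusted p = 0.0319). The call of Tra2a was lost in 7 of 16 alternatives, among them leaving out DT 2 (0.168), saline 2 (0.102), saline 3 (0.0760) or DT 3 (0.106) and scaling by library size only (0.0572). Next to the Gsdmc row the nearest tested gene after it was Cyrib, 16.8 kb away (0.29, adjusted p = 0.521), and the nearest before it was Pvt1, 1516 kb away. Pvt1 (1.90, adjusted p = 0.00147) and Myc, 1786 kb before the row (0.48, adjusted p = 0.0199), rose. The gene 9930014A18Rik, 2945 kb before the row, fell (-1.23, adjusted p = 0.0121). Leaving out saline 2 gave an adjusted p of 0.0848 for Myc and 0.0635 for 9930014A18Rik. Leaving out DT 3 gave 0.0535 and 0.0526, leaving out saline 3 gave 0.0615 for Myc, and the larger number series alone gave 0.133 and 0.0618.

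The genes whose log2 level most resembled that of a member over the 6 libraries, by Pearson correlation and with no test, were Psrc1, Etfb and Padi4 for Gsdma3 (r = 0.9998, 0.999 and 0.998). Of these Psrc1, a spindle-associated protein gene, went from 6.25 ± 0.191 to 25.9 ± 3.94 CPM and Padi4, a peptidylarginine deiminase gene, had 0 reads in saline and 57 in DT. For Gsdma they were Otop3, Ptpdc1 and Pgm2l1 (0.994, 0.991 and 0.991), for Gsdmd Serpina3f, Gfra3 and Acads (0.983, 0.971 and 0.959), and for Gsdme Ccdc174, Dcaf7 and Mir6340 (0.995, 0.980 and 0.980). These genes were picked as the highest among the 15132 genes tested, over 6 libraries only, so high values of r carry little weight. The group difference is part of r for Gsdma3 and Gsdma, while the groups overlapped for Gsdmd and Gsdme. For Padi4 every saline value is the 0.1 CPM added before the logarithm.

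The libraries held 15300755 to 25558859 reads in genes, with DT library 2 the smallest. The genes of the sort, Cd34 and Itga6 (which encodes CD49f), had reads in all libraries and did not pass the test. Of 9 bulge markers, all with reads, Lhx2 (-1.09, adjusted p = 0.00696), Sox9 (-0.71, adjusted p = 0.0342) and Nfatc1 (-0.69, adjusted p = 0.0165) fell and Krt14, a keratin of basal epithelium, rose (1.78, adjusted p = 5.16e-05). Over all genes tested, 2600 rose and 1795 fell.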

How the data were processed

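Reads were aligned with GSNAP to GRCm38, per the submitters' processing notes. Each deposited count gives the uniquely aligning reads of a gene model, and each deposited RPKM value was corrected by the authors with a library size factor, per the file headers. The aligner's version and annotation, like read length and use of strand, were not given in the sources used here. Entrez identifiers were named by RefSeq for GRCm38.p6 (31049 of 36528).

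For the counts edgeR 4.0.16 was run under R 4.3.3: filterByExpr (minimum count 10, minimum total 15; 15132 genes), TMM scaling, and the robust quasi-likelihood test of 3 DT against 3 saline libraries with no covariate, calling genes by Benjamini-Hochberg adjusted p below 0.05. Standard errors are the log2 fold change over the root of the F statistic. The test was first tested on simulated data. Replicates were numbered in accession order and are not paired.

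The members, gene lists and tests were chosen with earlier results of these data known. Named genes are all members, called list genes (up to 4 a list by p, with others behind small counts), called flanking genes (up to 3 a locus), and the 3 genes most correlated, on log2(CPM + 0.1), with each member of at least 1 CPM. Genes that cut, assemble or regulate gasdermins, necroptosis genes (some listed genes are not reported here), and marker lists of bulge, suprabasal, upper follicle, inner root sheath and hair shaft, sebaceous, immune, fibroblast, melanocyte and endothelial cells were listed. Printed once here, markers that rose and fell were 1 and 3 of 9 for bulge, 2 and 1 of 7 for sebaceous, 0 and 1 of 2 for fibroblast, 0 and 3 of 4 for melanocyte, and 0 and 0 of 2 for endothelial cells. Alternatives were other scalings, filters and tools (DESeq2 1.42.0, limma 3.58.1), identifier blocks, and each library left out.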

Additional observations from a re-analysis of the deposited data

How the results depend on the processing

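The labels give no replicate numbers, so the design states no pairing. Using the number series of the sample identifiers as a block moved no count of calls by over 1.5 times. Nor did taking consecutive identifiers as pairs, added after the data were seen, which gave 2703 genes higher and 1889 lower, and 9 pathway genes higher. Over the 16 alternatives the log2 fold change of Gsdma3 was 2.68 to 3.05 and that of Gsdma -1.72 to -0.65, both ends of least change coming from log2(RPKM + 1), which shrinks low genes. Gsdmd ranged from 0.05 to 0.33 and Gsdme from 0.22 to 0.88, and no member changed sign. With any 1 library left out, 1564 to 2826 genes were higher and 996 to 2045 lower over all genes, 4 to 7 pathway genes were higher and 0 lower, and 4 to 7 flanking genes were higher and 1 to 3 lower. In the larger number series alone, added after the data were seen and with 2 libraries a group, 1097 genes were higher and 473 lower, 4 pathway genes were higher, and 3 flanking genes were higher and 1 lower. For single pathway and flanking genes, calls were lost in 26 comparisons of a gene under an alternative, in 7 genes whose values stand in the report, and gained in 16, and no call changed direction. Scaling by library size only shifted the all-gene median log2 fold change from -0.01 to -0.11 and gave 2099 higher and 2316 lower genes. Depth limits the members of few reads: the 5 members that did not pass the filter were not tested, and counts of 0 allow up to 0.201 CPM in the shallowest library.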
